A study of Mus musculus with 10 samples.

Results

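Lipid droplet coat proteins, the CIDE proteins and the lipase that opens the breakdown of stored triglyceride, with its regulators, were followed in livers of fed and starved mice. The 10 genes were chosen by name, for their role, with earlier results of these data known. They were the perilipins Plin2, Plin3, Plin4 and Plin5 and the CIDE genes Cidea, Cideb and Cidec. The others were the lipase gene Pnpla2, its activator Abhd5 and its inhibitor G0s2. All 10 were found among the 23420 genes counted, and 9 had enough reads to be tested among 12796 genes. The libraries came from total RNA of whole livers of male C57BL/6 mice aged 4 months, in a series on histone lysine β-hydroxybutyrylation and gene regulation by the metabolic state. The 5 fed mice received standard chow, and the 5 starved mice had water but no food for 48 hours. Each library was taken as 1 mouse, numbered 1 to 5 within its group, and whole liver holds other cells beside hepatocytes.

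Hepatocytes keep triglyceride in droplets enclosed by a phospholipid layer that perilipins coat, and CIDE proteins at contacts between droplets let lipid pass from the smaller to the larger. Adipose triglyceride lipase, the product of Pnpla2, releases the first fatty acid, with ABHD5 as its coactivator and G0S2 as its inhibitor. In fasting, fatty acids from adipose tissue reach the liver, where they are esterified into droplets, secreted in lipoproteins or oxidised.

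In starved liver, 4 of the 9 tested genes rose and 0 fell: Cidec, Plin4, Plin5 and Pnpla2. Among all tested genes, 18.6% rose and 20.0% fell by the same rule, an adjusted p under 0.05 in edgeR's quasi-likelihood test. The other 5, Plin2, Plin3, Cideb, Abhd5 and G0s2, were not called. The 4 log2 fold changes, 3.47, 2.77, 2.39 and 2.38, ranked 36, 65, 97 and 100 from the top among 12796 genes. In each of the 4 every starved library lay above every fed library, which held for 13.2% of all tested genes. The median log2 fold change of the 9 genes was 0.05, against 0.00 over all tested genes.

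Each library held 18.2 to 29.9 M reads in genes. Starved libraries 2 and 4 were set off from the remaining starved livers in several of the values below and had the lowest shares of reads aligned to more than 1 place, 38.6% and 40.7% against 43.4% to 48.4% in the other 8 libraries. Results that rest on them are therefore also given without them. This omission was chosen after the values were seen, so p-values without these libraries are descriptions only. Hepatocyte markers were abundant in every library, Alb, the albumin gene, at a mean of 82740 CPM when fed and 94215 CPM when starved (CPM, TMM-scaled counts per M reads). Of 9 hepatocyte markers 3 rose (Apoa1, Cps1 and Hnf4a, by 0.99, 1.63 and 0.51 on the log2 scale) and 2 fell (Ttr, −0.88, and Serpina1c, −0.70), with a summed level of 89618 to 133679 CPM in fed and 113538 to 175863 in starved libraries. Of 10 Kupffer cell markers 0 rose and 9 fell (summed level 497 to 797 CPM in fed and 220.2 to 423 in starved libraries). Of 10 sinusoidal endothelial markers 1 rose and 6 fell, and of 10 stellate cell markers 2 rose and 4 fell. Of 5 tested cholangiocyte markers 0 rose and 1, Spp1, fell. The summed level of all 6 was 46.4 to 57.5 CPM in fed and 15.1 to 40.7 in starved libraries. Among all tested genes 18.6% rose and 20.0% fell. The part of these cell types in the results below was not tested. In whole liver, fewer cells of a type and less RNA per cell cannot be told apart.

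The sequences just upstream of the 4 genes that rose are shown because all 4 were called higher, and the Cidec gene is shown at both of its RefSeq starts. Plin5 also has a second RefSeq start, 250 bases downstream, whose window held GGGCGG at 2 places and no AGGTCA and is not shown. They come from RefSeq (GRCm38.p6, the assembly of mm10), 5′ to 3′ on the gene's strand, and end at the start site or, for Plin4 and Plin5, where the first annotated exon begins. Capitals mark matches on either strand to the nuclear receptor motif AGGTCA, to the CCAAT box, to the GC box GGGCGG or to the TATA motif TATAAA.
Cidec, chr6:113435761-113436010, minus strand: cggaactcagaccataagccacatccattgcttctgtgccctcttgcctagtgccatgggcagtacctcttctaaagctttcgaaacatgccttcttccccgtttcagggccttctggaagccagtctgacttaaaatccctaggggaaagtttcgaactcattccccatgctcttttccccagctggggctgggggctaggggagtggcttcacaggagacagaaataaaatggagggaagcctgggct
Cidec, second start, chr6:113434765-113435014, minus strand: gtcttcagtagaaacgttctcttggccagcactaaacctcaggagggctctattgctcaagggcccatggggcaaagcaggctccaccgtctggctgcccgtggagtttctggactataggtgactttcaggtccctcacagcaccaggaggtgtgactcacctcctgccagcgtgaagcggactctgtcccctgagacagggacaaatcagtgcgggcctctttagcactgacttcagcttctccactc
Plin4, chr17:56109804-56110032, minus strand: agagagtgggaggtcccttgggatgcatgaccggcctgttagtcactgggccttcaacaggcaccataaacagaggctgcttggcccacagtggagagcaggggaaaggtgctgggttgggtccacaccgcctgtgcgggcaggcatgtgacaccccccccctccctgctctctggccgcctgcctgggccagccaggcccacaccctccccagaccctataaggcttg
Plin5, chr17:56117597-56117798, minus strand: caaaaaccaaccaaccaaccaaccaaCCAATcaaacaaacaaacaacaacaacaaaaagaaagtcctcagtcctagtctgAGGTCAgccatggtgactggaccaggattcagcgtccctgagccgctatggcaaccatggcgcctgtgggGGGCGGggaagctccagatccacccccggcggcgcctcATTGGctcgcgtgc
Pnpla2, chr7:141454938-141455187, plus strand: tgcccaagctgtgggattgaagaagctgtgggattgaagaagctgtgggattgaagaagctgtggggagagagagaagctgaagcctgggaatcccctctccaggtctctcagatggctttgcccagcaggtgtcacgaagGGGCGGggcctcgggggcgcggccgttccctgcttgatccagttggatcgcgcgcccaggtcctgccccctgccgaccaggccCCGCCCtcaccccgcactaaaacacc

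PPARA, the fatty acid receptor of liver, binds together with RXR to a direct repeat of AGGTCA with 1 free base between the copies, so every full repeat also holds AGGTCA. Over the 250 bases before each of 32851 RefSeq starts, counted on both strands, AGGTCA occurred in 14.0% of windows and the full repeat in 0.033%. The 9 genes with a window, all but Cidea, had 11 such windows. Of these, 3 held AGGTCA, those of Plin2, Plin5 and Abhd5, and 0 held the full repeat. In the window of Plin5 shown here the match began 170 bases before the start. The FOXO motif GTAAACA, present in 3.17% of all windows, was in 0 of the 11, and GGGCGG, a GC box, in 7 of the 11 against 32.7% of all windows. CCAAT was in 4 of the 11 (33.9% of all windows), those of Plin2, Plin3 and Plin4 and the shown window of Plin5. The match of Plin4 began 18 bases before the start, in the exon bases left out above. TATAAA was in 1 (12.4%). None of these motifs was found in either Cidec window. A match is a description of the letters only.

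Cidec encodes the CIDE protein best known from fat tissue, where it enlarges droplets. It lies on chromosome 6 (113424634 to 113435760, minus strand, mm10). Fed libraries 1 to 5 had 3.86, 2.25, 1.91, 2.24 and 1.89 CPM, and starved libraries 1 to 5 had 14.6, 31.5, 35.5, 46.6 and 7.01 CPM. The groups did not overlap, but starved libraries 5 and 1 were far below the other 3 starved libraries. The mean rose from 2.43 ± 0.818 to 27.1 ± 16.0 CPM (SD, n = 5 each), a log2 fold change of 3.47 ± 0.46 SE (adjusted p = 0.000269, edgeR's quasi-likelihood test). Without starved libraries 2 and 4 it was 2.99. Counts were made per gene, so transcripts from the pair of start sites could not be told apart.

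Cideb, the CIDE gene typical of hepatocytes, which serves the loading of secreted lipoproteins with lipid, ranged from 10.5 to 16.3 CPM in fed and from 11.7 to 13.7 CPM in starved liver. Its log2 fold change was −0.07 ± 0.14 SE (adjusted p = 0.728, edgeR). Of its annotated exon bases, 76.3% overlap exons of Nop9 on the opposite strand. The strand setting of the counting is not given in the sources used here, so reads of the 2 genes may have been mixed or left out. Nop9 itself stood at 17.9 ± 0.547 and 23.2 ± 6.11 CPM and was not called.

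Cidea, known from brown fat, was close to absent. It had 6, 3, 1, 0 and 0 reads in fed libraries 1 to 5 and 7, 0, 0, 0 and 0 in starved libraries 1 to 5, too few to be tested. A count of 0 allows up to 3 reads in that library. The libraries with Cidea reads also held reads of Adipoq, the adipocyte hormone adiponectin: 86, 10, 3, 1 and 4 in fed and 29, 1, 0, 1 and 1 in starved libraries 1 to 5. Plin1, the perilipin of adipocytes, had 14, 11, 2, 0 and 0 reads in fed and 4, 0, 0, 1 and 0 in starved libraries. Of 6 adipocyte markers only 2, Cfd and Lipe, had enough reads to be tested, and 0 of these were called. Over all 6 the sum was 10.8 to 31.8 CPM in fed and 8.16 to 12.9 CPM in starved libraries. Except in fed library 1, most of the sum was Lipe, which had 164 to 356 reads in every library. Over the other 5 markers the sum was 0.103 to 20.5 CPM (median 1.77) in fed and 0.0534 to 5.17 CPM (median 0.0984) in starved libraries. Lep, the leptin gene, was at 0 reads in all 5 starved libraries. Cidec, Plin4, Plin5 and Pnpla2 were above every fed library in all 5 starved libraries, both in library 1 with 29 Adipoq reads and in libraries 2 to 5 with 0 or 1. The part of adipocyte RNA in their levels was not tested.

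**Figure D1:**
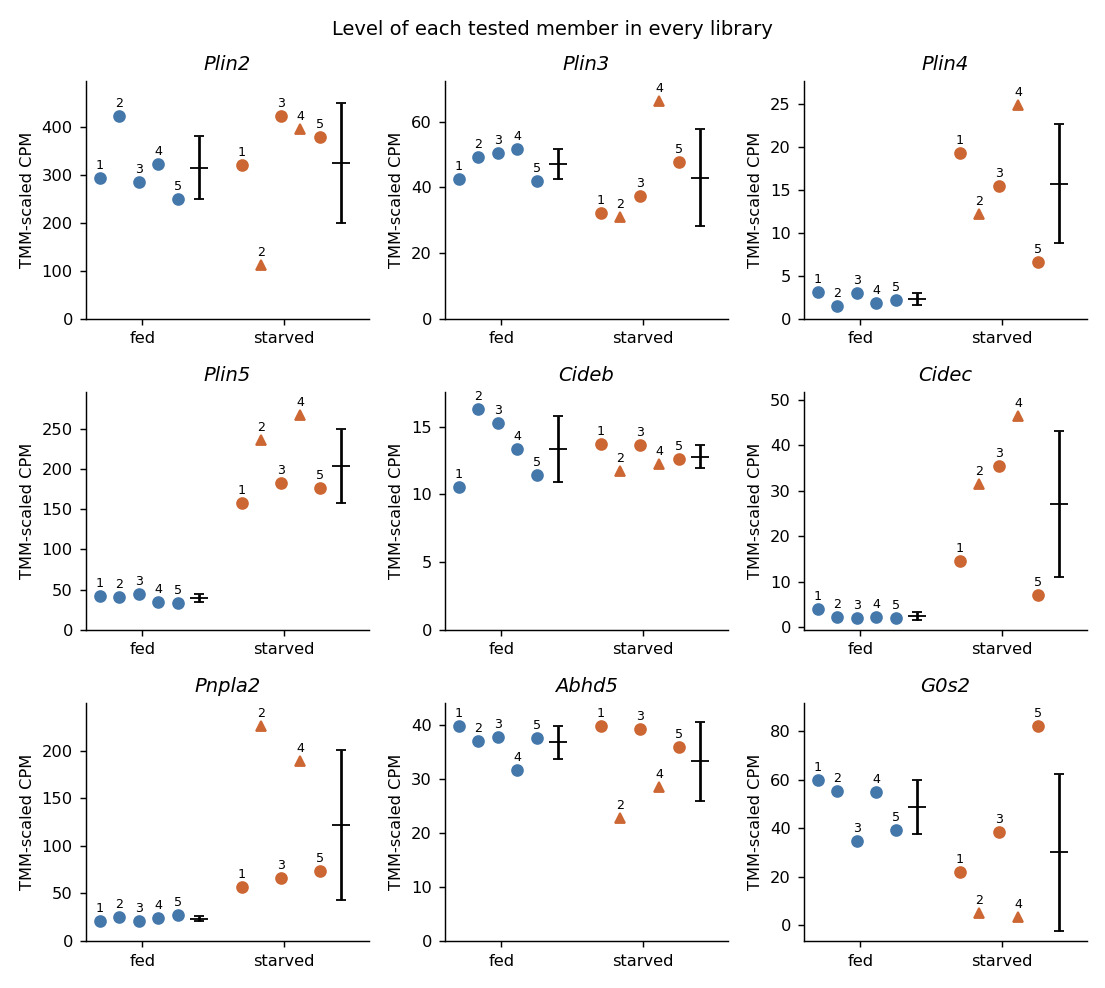
Level of each of the 9 tested genes in every library, in TMM-scaled CPM on linear axes. Numbers are the replicates, triangles mark starved libraries 2 and 4, and the bar beside each group is its mean with 1 SD each way. Plin4, Plin5, Cidec and Pnpla2 separate the groups, whereas the lowest and highest G0s2 values, 3.25 and 82.1 CPM, are both from starved libraries.

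Plin4 encodes a perilipin with long amphipathic repeats, abundant in fat tissue and muscle. It had 3.13, 1.52, 2.94, 1.82 and 2.17 CPM in fed libraries 1 to 5, the lowest level among the 4 perilipins described here. In starved libraries 1 to 5 it had 19.3, 12.2, 15.5, 25.0 and 6.61 CPM. The lowest starved value, from library 5, was still above the highest fed value. The mean rose from 2.32 ± 0.696 to 15.7 ± 6.96 CPM, a log2 fold change of 2.77 ± 0.34 SE (adjusted p = 0.000158, edgeR), and of 2.61 without starved libraries 2 and 4.

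Plin5 encodes the perilipin of oxidative tissues, which holds droplets close to mitochondria and binds both the lipase and ABHD5. Fed libraries 1 to 5 had 41.8, 40.5, 44.9, 34.6 and 33.4 CPM, and starved libraries 1 to 5 had 157, 236, 183, 267 and 176 CPM. Starved libraries 2 and 4 were the highest, and the groups were far apart. The mean rose from 39.0 ± 4.88 to 204 ± 45.8 CPM, a log2 fold change of 2.39 ± 0.16 SE (adjusted p = 6.57e-06, edgeR), the smallest standard error among the 4 genes that rose. Without starved libraries 2 and 4 it was 2.16.

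Plin2, the main coat protein of hepatocyte droplets, ranged from 251 to 425 CPM in fed livers. Starved libraries 1 to 5 had 321, 112, 423, 396 and 379.6 CPM, so that library 2 lay below every other library and the other 4 lay within the fed range. The log2 fold change was 0.05 ± 0.29 SE (adjusted p = 0.911, edgeR), 0.27 without starved libraries 2 and 4 (adjusted p = 0.198) and −0.080 with library totals alone as scaling. Plin3, a widely expressed perilipin that moves from the cytosol to new droplets, ranged from 41.9 to 51.7 CPM in fed livers and had 32.2, 30.8, 37.4, 66.4 and 47.8 CPM in starved libraries 1 to 5. Its starved values lay below, within and above the fed range, and its log2 fold change was −0.14 ± 0.19 SE (adjusted p = 0.604, edgeR). It was −0.26 without starved libraries 2 and 4 (adjusted p = 0.110), −0.33 when library 4 alone was left out (adjusted p = 0.0914) and −0.029 when library 2 alone was.

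Because the perilipins differ in length, their levels were also set per kilobase of annotated exon (RPKM, from the scaled CPM). In fed liver Plin2 was highest at 89.9 ± 18.9 RPKM, followed by Plin5 at 18.7 ± 2.34, Plin3 at 12.5 ± 1.21 and Plin4 at 0.401 ± 0.120. None of the fed ranges of these 4 genes overlapped. In starved liver Plin5 had a mean of 97.8 RPKM (75.5 to 128) and Plin2 of 92.9 ± 35.7, and their ranges overlapped. This order rested on starved libraries 2 and 4: without them Plin2 was at 106.6 ± 14.6 RPKM and Plin5 at 82.6 ± 6.38 (n = 3), with Plin2 the higher in each of the 3. Within a library, the ratio of Plin5 to Plin2 per length was 0.239, 0.160, 0.265, 0.180 and 0.224 in fed and 0.826, 3.55, 0.729, 1.13 and 0.782 in starved libraries 1 to 5. This pair was picked after its values were seen and is given without a test.

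Among all 10 genes, G0s2 was the next after Plin2 in fed liver, at 56.0 ± 12.7 RPKM. In fed liver Cideb (8.99 ± 1.64) and Pnpla2 (7.78 ± 0.854) were the only neighbours in the order whose ranges overlapped. Abhd5 followed at 6.18 ± 0.505 RPKM and Cidec at 1.31 ± 0.441. In starved liver Pnpla2 ranked next after Plin5 and Plin2 at 40.5 ± 26.2 RPKM, ahead of G0s2 at 34.6 ± 37.2, Cidec at 14.6 ± 8.64 and Plin3 at 11.3 ± 3.88. The place of Pnpla2 ahead of G0s2 rested on starved libraries 2 and 4. In libraries 1, 3 and 5 G0s2 was the higher, and without libraries 2 and 4 it was at 54.6 ± 35.7 RPKM and Pnpla2 at 21.7 ± 2.87 (n = 3). Neighbours in the order over all 5 libraries overlapped from Plin5 down to Cideb (8.59 ± 0.583), while Abhd5 (5.59 ± 1.24) lay below Cideb in every starved library. The lengths are those of all annotated exons together, which need not be the transcripts made in liver. The place of Cideb also rests on counts in which reads may have been mixed with those of Nop9 or left out.

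Plin4, Plin5 and Plin3 lie on the minus strand of chromosome 17 within 192 kb. Plin4 spans 56100591 to 56109803 and Plin5 56111601 to 56117596 (mm10), with a gap of 1797 bp. After a further gap of 159.9 kb, Plin3 spans 56277476 to 56292873. Of 14 tested protein-coding genes within this stretch and 50 kb on either side, the 3 perilipins included, 8 rose and 1 fell. The rise of Plin4 and Plin5 prompted the look. Without the 3 perilipins it was 6 and 1 of 11, against 18.6% and 20.0% of all tested genes. Next to Plin5, Lrg1, a secreted glycoprotein gene, rose by 0.83 ± 0.18 SE and, beyond it, Sema6b, a semaphorin gene, by 0.72 ± 0.20 on the log2 scale. On the other side of Plin4, Hdgfl2 (0.56 ± 0.15) and Ubxn6 (0.54 ± 0.13) rose. Next to Plin3, Ticam1, an adaptor of Toll-like receptors, rose by 0.90 ± 0.16. On the other side of Plin3, Arrdc5 had too few reads to be tested (0.00689 CPM in fed and 0.364 in starved liver). Beyond Arrdc5, Uhrf1, a factor of DNA methylation maintenance, fell (−2.57 ± 0.47, from 0.617 to 0.0970 CPM). Plin4 and Plin5 had the highest fold changes of the 14. Exons of Plin4 share 17 bases with Hdgfl2 on the opposite strand, 0.294% of its exon length. The neighbours were chosen by position after the perilipin values were seen.

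**Figure D2:**
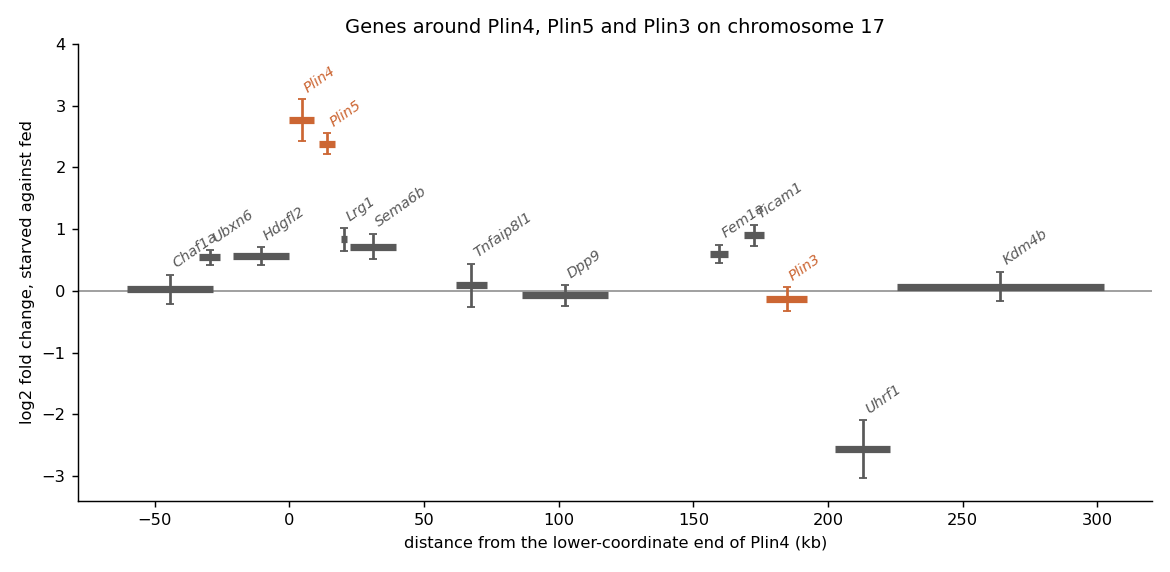
Log2 fold change, starved against fed, of 14 protein-coding genes around Plin4, Plin5 and Plin3, by distance in kb from the lower-coordinate end of Plin4. Horizontal bars span each gene, vertical bars are 1 SE each way, and perilipins are orange. Plin4 (2.77) and Plin5 (2.39) stand above the genes beside them, and Plin3 (−0.14) is near 0.

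Pnpla2, on chromosome 7 (141455198 to 141460743, plus strand, mm10), encodes adipose triglyceride lipase. Fed libraries 1 to 5 had 20.6, 24.8, 21.2, 24.1 and 26.7 CPM, and starved libraries 1 to 5 had 56.4, 225, 66.3, 189 and 73.7 CPM. All starved values exceeded all fed values, and starved libraries 2 and 4 were well above the other 3. The mean rose from 23.5 ± 2.58 to 122 ± 79.0 CPM, a log2 fold change of 2.38 ± 0.38 SE (adjusted p = 0.000702, edgeR). Without starved libraries 2 and 4 the log2 fold change was 1.50, and the gene was still called (adjusted p = 1.42e-06, edgeR). These libraries had the highest Pnpla2 levels and were left out after the values were seen. The smaller p-value is therefore no further support.

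Abhd5, the coactivator, ranged from 31.7 to 39.8 CPM in fed livers and had 39.9, 22.8, 39.2, 28.5 and 35.9 CPM in starved libraries 1 to 5. Its 2 lowest values were from starved libraries 2 and 4, where Pnpla2 was highest. The log2 fold change was −0.15 ± 0.15 SE (adjusted p = 0.466, edgeR) and, without these libraries, 0.08. An antisense gene, A730085K08Rik, overlaps 15.9% of its exon bases and had a mean of 0.0147 CPM when fed and 0.0107 CPM when starved.

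G0s2, the inhibitor, lies on chromosome 1 (193272161 to 193273217, minus strand, mm10). Fed libraries 1 to 5 had 59.7, 55.5, 34.8, 54.9 and 39.2 CPM, and starved libraries 1 to 5 had 21.9, 4.97, 38.6, 3.25 and 82.1 CPM. Starved libraries 2 and 4 were below every other library and starved library 5 was above every fed library. The means were 48.8 ± 11.1 and 30.2 ± 32.4 CPM, with a log2 fold change of −0.70 ± 0.67 SE (adjusted p = 0.423, edgeR). The value was −0.03 without starved libraries 2 and 4 and −1.51 without starved library 5 (adjusted p = 0.0673), and −1.62 by limma-voom (adjusted p = 0.0826), so that it passed the threshold in none of these.

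**Figure D3:**
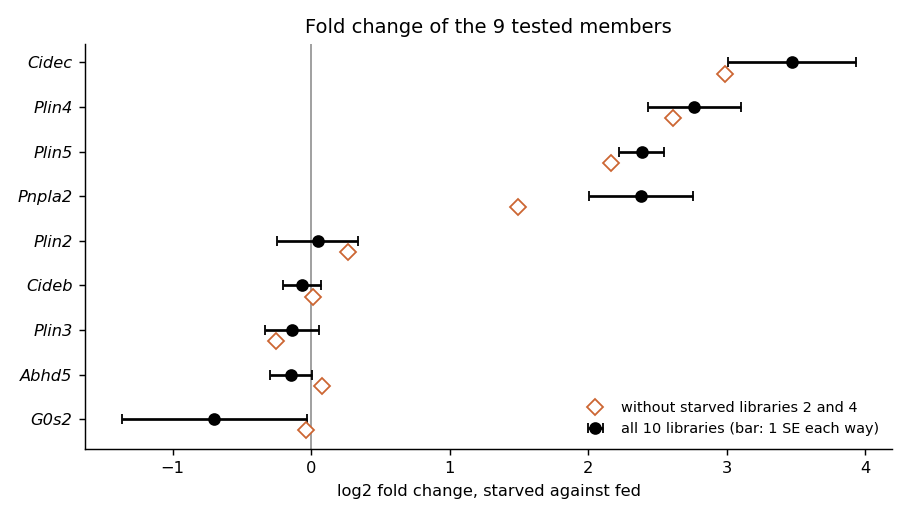
Log2 fold change of the 9 tested genes, starved against fed, with all 10 libraries (filled circles, bar 1 SE each way) and without starved libraries 2 and 4 (open diamonds). Pnpla2 moves from 2.38 to 1.50 and G0s2 from −0.70 to −0.03 when these libraries are left out, while Cidec, Plin4 and Plin5 stay above 2 on this scale.

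The ratio of 2 genes within a library does not depend on how libraries are scaled, and 5 such ratios were compared. They were chosen with earlier results of these data known. Pnpla2 and Cidec alone already separated the groups, whereas G0s2, Abhd5 and Cideb were not called. A ratio of Pnpla2 or Cidec with any of these 3 genes is therefore no separate evidence of a change in G0s2, Abhd5 or Cideb. The ratio of G0s2 to Pnpla2 reads was 2.90, 2.23, 1.64, 2.28 and 1.47 in fed libraries 1 to 5, so the inhibitor had the more reads in each. In starved libraries 1 to 5 it was 0.388, 0.0220, 0.582, 0.0172 and 1.11. Every starved library was below every fed library. The mean log2 ratio was 1.03 ± 0.40 in fed and −2.67 ± 2.80 in starved liver, a difference of −3.70 (exact two-sided permutation p = 0.00794, the smallest that 5 against 5 allows, adjusted over the 5 ratios 0.0132). Without starved libraries 2 and 4 the difference was −1.69, and without starved library 5 it was −4.40.

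The ratio of Abhd5 to Pnpla2 reads was 1.93, 1.49, 1.79, 1.32 and 1.41 in fed and 0.707, 0.101, 0.592, 0.151 and 0.487 in starved libraries 1 to 5. The groups did not overlap, and the mean log2 ratio was lower in starved liver by a difference of −2.32 (exact permutation p = 0.00794, adjusted p = 0.0132), or −1.42 without starved libraries 2 and 4. The ratio of Plin5 to Pnpla2 was 1.25 to 2.12 in fed and 2.79, 1.05, 2.76, 1.41 and 2.39 in starved libraries 1 to 5. Its log2 difference was 0.22 (exact permutation p = 0.524, adjusted p = 0.655). Starved libraries 1, 3 and 5 lay above the fed range, and without libraries 2 and 4 the difference was 0.67 with an adjusted p of 0.0446 by the same exact test. These 2 libraries had the lowest starved ratios of this pair and were left out after the values were seen. That p-value is therefore not evidence of a difference.

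The ratio of Cidec to Cideb was 0.367, 0.138, 0.125, 0.168 and 0.165 in fed and 1.07, 2.69, 2.61, 3.80 and 0.555 in starved libraries 1 to 5, with no overlap and a log2 difference of 3.28 (exact permutation p = 0.00794, adjusted p = 0.0132). Fed library 1, with the most Adipoq reads, was highest among the fed. The overlap of Cideb with Nop9 limits the size of this ratio. The ratio of Plin2 to Plin3 was 5.64 to 8.63 in fed and 3.64 to 11.3 in starved libraries, and its log2 difference was 0.12 (exact permutation p = 0.730, adjusted p = 0.730). It was 0.54 without starved libraries 2 and 4 (adjusted p = 0.0536 by the same exact test).

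**Figure D4:**
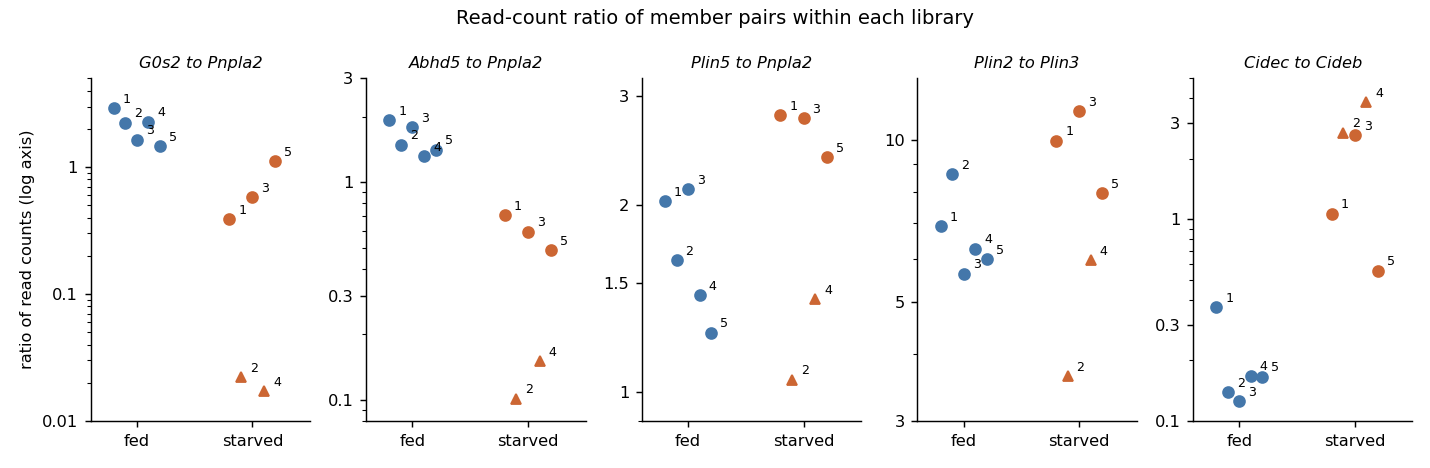
Ratio of read counts of 5 gene pairs in each library, on log axes that differ between panels. Numbers are the replicates and triangles mark starved libraries 2 and 4. The groups separate for G0s2 to Pnpla2, Abhd5 to Pnpla2 and Cidec to Cideb, with a lowest G0s2 to Pnpla2 ratio of 0.0172 in starved library 4.

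The starved libraries also differed more among themselves. The SD of log2 CPM was larger in starved than in fed libraries for 8 of the 9 genes, and the exception was Cideb (0.10 against 0.27). The share of all tested genes with a larger starved SD was not computed, so this is not read as particular to these genes. It was 1.97 against 0.35 for G0s2, 1.12 against 0.42 for Cidec, 0.93 against 0.16 for Pnpla2 and 0.80 against 0.28 for Plin2. Plin5 varied least of the genes that rose, at 0.32 against 0.18.

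Of 53 other genes of droplets and lipolysis, 51 were tested. The share that rose, 10 genes or 19.6%, was near the 18.6% of all tested genes, and 20 genes or 39.2% fell, against 20.0% of all. The median log2 fold change was −0.21, against 0.00 over all tested genes. Hilpda, a small droplet protein that inhibits the same lipase as G0S2, rose the most (1.47 ± 0.34 SE, from 1.50 ± 0.279 to 4.20 ± 2.61 CPM). The droplet enzymes Hsd17b13 (1.28 ± 0.19, from 156 ± 23.5 to 379 ± 102 CPM) and Hsd17b11 (1.11 ± 0.17), the triglyceride synthase Dgat1 (1.18 ± 0.19) and Fitm2, a factor of droplet budding (1.16 ± 0.28), rose as well. So did Acsl4, an acyl-CoA synthetase that prefers polyunsaturated fatty acids (0.91 ± 0.28). Dgat2, also a triglyceride synthase, fell (−1.24 ± 0.17, from 762 ± 85.4 to 324 ± 74.4 CPM). It was far more abundant than Dgat1, which went from 17.2 ± 1.41 to 39.2 ± 12.1 CPM. Dgat2 was singled out after its values were seen. Without starved libraries 2 and 4 the log2 fold change was 0.65 for Fitm2 and 0.30 for Acsl4. The call of Acsl4 was lost without fed library 1 (adjusted p = 0.0506) or 2 (0.051) or starved library 4 (0.0528), and its fold change was 0.58 without starved library 2.

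The list's largest falls were those of Sqle (−3.73 ± 0.29) and Nsdhl (−3.21 ± 0.37), enzymes of cholesterol synthesis that can sit on droplets. Pnpla3, a droplet-bound relative of the lipase, fell from 5.01 ± 2.79 to 0.570 ± 0.245 CPM (−3.11 ± 0.42; adjusted p = 0.000314, edgeR). Lipg, the endothelial lipase (−2.07 ± 0.54), Acsl3, an acyl-CoA synthetase of nascent droplets (−1.92 ± 0.17), and Ces3a, a carboxylesterase (−1.91 ± 0.21), fell too. Lipe and Mgll encode the lipases that act after the first step, and were singled out after their values were seen. Lipe stood at 11.4 ± 0.728 and 9.48 ± 1.75 CPM (adjusted p = 0.144, edgeR) and Mgll at 239.8 ± 36.3 and 185 ± 84.5 CPM (adjusted p = 0.328), and neither was called. Lipe was called with library totals alone as scaling (−0.43 in place of −0.26).

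**Figure D5:**
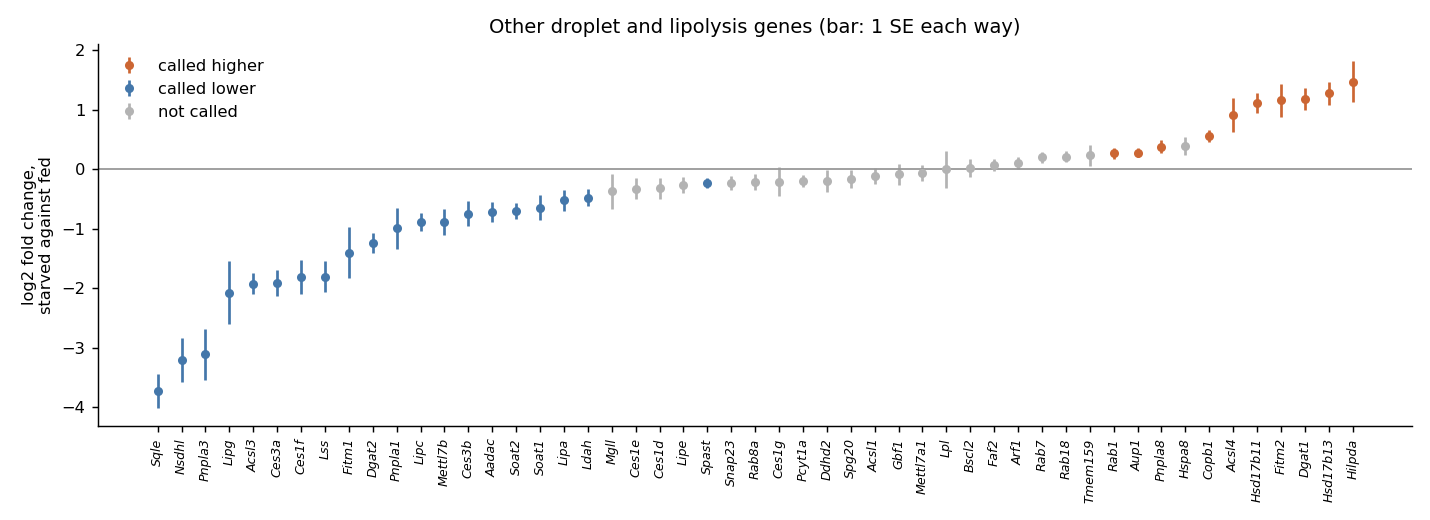
Log2 fold change, starved against fed, of the 51 tested genes of the wider droplet and lipolysis list, in rising order, with bars of 1 SE each way. Orange marks the 10 genes that rose, blue the 20 that fell and grey those not called, and the range runs from −3.73 for Sqle to 1.47 for Hilpda.

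Of 22 transcription factors and coactivators of lipid metabolism in liver, 3 rose (13.6%, against 18.6% of all tested genes) and 4 fell (18.2%, against 20.0%), with a median of 0.16. Both shares lay near those of all genes. Ppargc1a, a coactivator of PPARA (2.18 ± 0.16), and Creb3l3, a fasting-related factor of the endoplasmic reticulum membrane (0.49 ± 0.11), rose, and Ppara (−1.20 ± 0.21), Srebf1 (−3.41 ± 0.34), Mlxipl, the carbohydrate-responsive factor (58.6 ± 10.2 to 29.3 ± 5.29 CPM), and Cebpa (−0.82 ± 0.19) fell. Cebpb rose (1.05 ± 0.36), but its call was lost in 10 of the other settings, among them without starved libraries 2 and 4 (0.65).

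The genes whose log2 CPM over the 10 libraries, each centred on its fed mean, lay nearest to that of Cidec by Euclidean distance were Defb1, a defensin (1.85), Insig2, which retains SREBP precursors in the endoplasmic reticulum (2.03), Bmper, a regulator of bone morphogenetic proteins (2.08), and Apoa4, an apolipoprotein (2.08). Their log2 fold changes were 3.66, 3.53, 3.15 and 4.13, and 3.37, 3.05, 1.92 and 3.64 without starved libraries 2 and 4. Nearest to Pnpla2 were Rhbdd2 (0.580), Tmprss2 (0.722), Atg16l2 (0.845) and Nle1 (0.846), with log2 fold changes of 2.33, 2.30, 2.27 and 2.48. Without starved libraries 2 and 4 these 4 values were lower, at 1.64, 1.32, 1.61 and 1.53. The points share libraries and scaling, and the distances are descriptions with no test.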

How the data were processed

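RNA was measured in 10 libraries, 5 from fed and 5 from starved livers, made with a strand-marking kit from total RNA, per the labels. The deposited files hold raw read counts per gene symbol. Per the submitters' processing notes, the tools were HTSeq, edgeR 3.6.4, Bowtie2 2.0.0, TopHat2 2.0.0 and CASAVA 1.8.2, with build mm10. Which annotation and strand setting were used is not given in the sources used here. Reads aligned to more than 1 place (38.6% to 48.4% per library) or to no gene (16.0% to 24.7%) stayed out of library sizes. The labels speak of 5 pairs of mice but tie no replicate number to a pair, and same-numbered libraries were not treated as pairs.

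Counts were compared with edgeR 4.0.16 (filterByExpr, TMM, quasi-likelihood test, Benjamini-Hochberg over 12796 genes) in R 4.3.3. The test was checked on simulated data. Alternatives were other scalings, DESeq2 1.42.0, limma-voom (limma 3.58.1), other filters, robust dispersion, a replicate block and leaving out libraries. Ratios used counts plus 0.5 and exact permutation. Named from each list were up to 6 called genes per direction, taken by size of change (1 CPM or more in the higher group), and the 4 genes nearest in profile to the called genes with the highest and lowest change. Dgat2 was named in addition, beside Dgat1. The genes, lists, ratios and tests were chosen with earlier results of these data known. Coordinates and exon lengths are from GENCODE M21 (GRCm38, mm10), which need not be the annotation counted. One hepatocyte marker, Tf, matched no row.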

Additional observations from a re-analysis of the deposited data

Results flagged for a closer look

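Of 30 groups of 5 checked (10 genes and 5 ratios, fed and starved), 3 had a library far from the other 4 by Dixon's criterion. For independent groups of normally distributed values chance alone gives this in about 1 group in 20. That rate does not carry over here. The remaining starved Cidea values were all 0, and the flags of Cidec and of its ratio to Cideb share the same Cidec counts. Cidea was at 0.272 CPM in starved library 1, the only starved library with reads of this gene. Cidec was highest in fed library 1 among the fed, at 3.86 CPM, and so was the ratio of Cidec to Cideb there, at 0.367. These are the libraries with the most Adipoq reads of their group, 86 in fed library 1 and 29 in starved library 1, and the part of adipocyte RNA in these values was not tested.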

How the results depend on the processing

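The counts of 4 genes that rose and 0 that fell held in all 20 other settings, which include leaving out each single library and leaving out starved libraries 2 and 4. Leaving out each library in turn gave log2 fold changes of 3.21 to 3.72 for Cidec, 2.56 to 2.96 for Plin4, 2.30 to 2.47 for Plin5 and 2.05 to 2.57 for Pnpla2. The wider list counted 7 to 13 genes higher and 15 to 23 lower. Near-zero values changed sign: Plin2 with library totals alone (−0.080), limma-voom (−0.071) and the replicate block (−0.025), and between −0.062 and 0.28 over single omissions, Cideb between −0.14 and 0.014 over single omissions and 0.015 without starved libraries 2 and 4, Abhd5 to 0.080 and Mgll to 0.030 without these 2 libraries. Their causes were not tested. The ratio of Plin5 to Pnpla2 (0.22) was 0.09 to 0.45 over single omissions and 0.67 without starved libraries 2 and 4. It passed the threshold there, but these 2 libraries had the lowest starved ratios and were picked after the values were seen. The ratio of Plin2 to Plin3 ranged from −0.038 to 0.37 over single omissions. With library totals alone the median of all genes moved by −0.16, and 1490 genes were higher and 3490 lower in place of 2379 and 2555. Same-numbered libraries deviated together only in part (correlations 0.20, 0.07, −0.01, −0.05 and −0.03), and with the replicate block 2029 genes were higher and 2381 lower, with all 4 calls kept (Cidec 3.27, Plin4 2.69, Plin5 2.37, Pnpla2 2.14). Leaving out starved libraries 2 and 4 was chosen from results already seen.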
